A study of Mus musculus with 24 samples.

Results

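Transcripts of 7 lysosomal genes were followed through the differentiation of HBC-3 cells, a single mouse hepatoblast line, on Matrigel, a basement membrane extract. Their features were found in the platform annotation by gene symbol, and the genes are Ctsa, Ctsb, Ctsl, Hexa, Ppt1, Lamp2 and Atp6ap1. These 7 genes were represented by 14 of the 24157 features of the array, and all 7 were among the 5660 named genes that could be tested. RNA was taken from undifferentiated cells (day 0) and on each of days 1 to 7 of differentiation, with 3 arrays a day (A, B and C) and 24 arrays in all. Before RNA was taken, the cells had been freed of their STON+ feeder layer by trypsin and replated on plastic, and the undifferentiated cells were collected the following morning. Every array compared a Cy5 sample with a Cy3 reference pool of undifferentiated HBC-3 RNA, so day 0 arrays carried undifferentiated cells in both channels. The labels do not say whether A, B and C were separate cultures, and p-values measure only the spread between arrays, which may be technical.

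Lysosomes are acidic compartments that break down proteins, glycans and lipids delivered by endocytosis and autophagy, and liver cells rely on them for the turnover of their own cytoplasm. Soluble hydrolases reach the lysosome after tagging with mannose 6-phosphate, the vacuolar ATPase acidifies its interior, and heavily glycosylated membrane proteins line it. Many of these genes share promoter elements bound by the transcription factor TFEB and its relatives. Ctsb and Ctsl encode papain family cysteine proteases, and Ctsa encodes a serine carboxypeptidase that also protects other lysosomal enzymes. Hexa encodes the alpha subunit of beta-hexosaminidase, the enzyme deficient in Tay-Sachs disease, and Ppt1 encodes a thioesterase that removes palmitate from proteins. Lamp2 encodes a major membrane glycoprotein that is needed for autophagy and is mutated in Danon disease. Atp6ap1 encodes an accessory subunit of the vacuolar ATPase.

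The core E-box of TFEB sites, CACGTG, and its extended form TCACGTGA were searched in promoters from RefSeq (GRCm38.p6, 250 bases before to 50 bases after each annotated start). Both motifs read the same on either strand, and each TCACGTGA contains a CACGTG. Of the 7 genes, 6 had an entry, with 7 promoters between them; Ctsb had none. CACGTG occurred in promoters of 2 of these genes, Ctsa and Ctsl, and the stretches that hold it are shown, with the motif in capitals. Of the 2 annotated Ctsa starts, the downstream one, which lies inside the gene's annotated span, held TCACGTGA at 2 places, beginning 13 bases before that start and at base 5 from it (chr2:164833759-164833785, plus strand). The Ctsl entry also uses a start inside the annotated gene, and its single CACGTG begins 236 bases before that start and 16 bases into the gene from its 5′ end (chr13:64370740-64370767, minus strand). Sequences run 5′ to 3′.
Ctsa: gTCACGTGAtgcagatgcTCACGTGAc
Ctsl: gcgttagaagcCACGTGctgatctaaat
Among all 32851 promoters of the same length, 7.15% held CACGTG and 0.974% held TCACGTGA. The match describes these letters only.

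Values are log ratios as deposited, read here as log2 of sample over reference, with each array centred on its own median. Base 2 and the direction sample over reference are the likely reading from the dyes, but neither is stated, so scale, centring and direction of the deposited values are not known beyond this. The 24 arrays gave 12328 to 22149 values each, with column medians of -0.03 to 0.03 before centring and standard deviations (SD) over features of 0.33 to 0.47 on day 0, 0.56 to 0.59 on day 1, 0.63 to 0.83 on days 2 and 3 and 0.67 to 1.06 on days 5 to 7. Day 0 arrays A and B stood apart from C: they correlated at 0.755 with each other over all features, while A and C correlated at -0.343. In all, 8 array pairs correlated below -0.3, each including day 0 A or B, so changes from day 0 are also given after inverting the day 0 ratios. Inverting all 3 day 0 arrays leaves the split of A and B from C as it was. Array C was also inverted alone, but A and B without C were not. The C arrays of days 4 to 7 correlated at 0.808 to 0.967 with each other, against 0.468 to 0.624 with A and B of their own day, and the counts that follow were also taken with these 4 arrays omitted.

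All 7 transcripts lay higher on the arrays of differentiating cells than on those of undifferentiated cells. Every one of the 21 arrays of days 1 to 7 read above all 3 day 0 arrays for each of the 7 genes, an ordering met by 8.17% of the 10639 genes and unnamed features tested. With the day 0 ratios inverted, this ordering held for 3 of the 7 (Ctsb, Hexa and Lamp2) and for 5.21% of all. By day 7 the rise was 5.54-fold for Ctsa, 5.86-fold for Ctsb, 6.69-fold for Ctsl, 5.59-fold for Hexa and 6.08-fold for Lamp2, and smaller, at 2.85-fold and 2.92-fold, for Ppt1 and Atp6ap1. With the day 0 ratios inverted these became 2.38-fold for Ctsa, 3.92-fold for Ctsb, 2.35-fold for Ctsl, 3.54-fold for Hexa, 3.10-fold for Lamp2, 2.14-fold for Ppt1 and 1.76-fold for Atp6ap1. In bulk RNA, more cells with a transcript and more of it per cell cannot be told apart. The comparisons with day 0 that follow share the same 3 day 0 arrays.

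**Figure D1:**
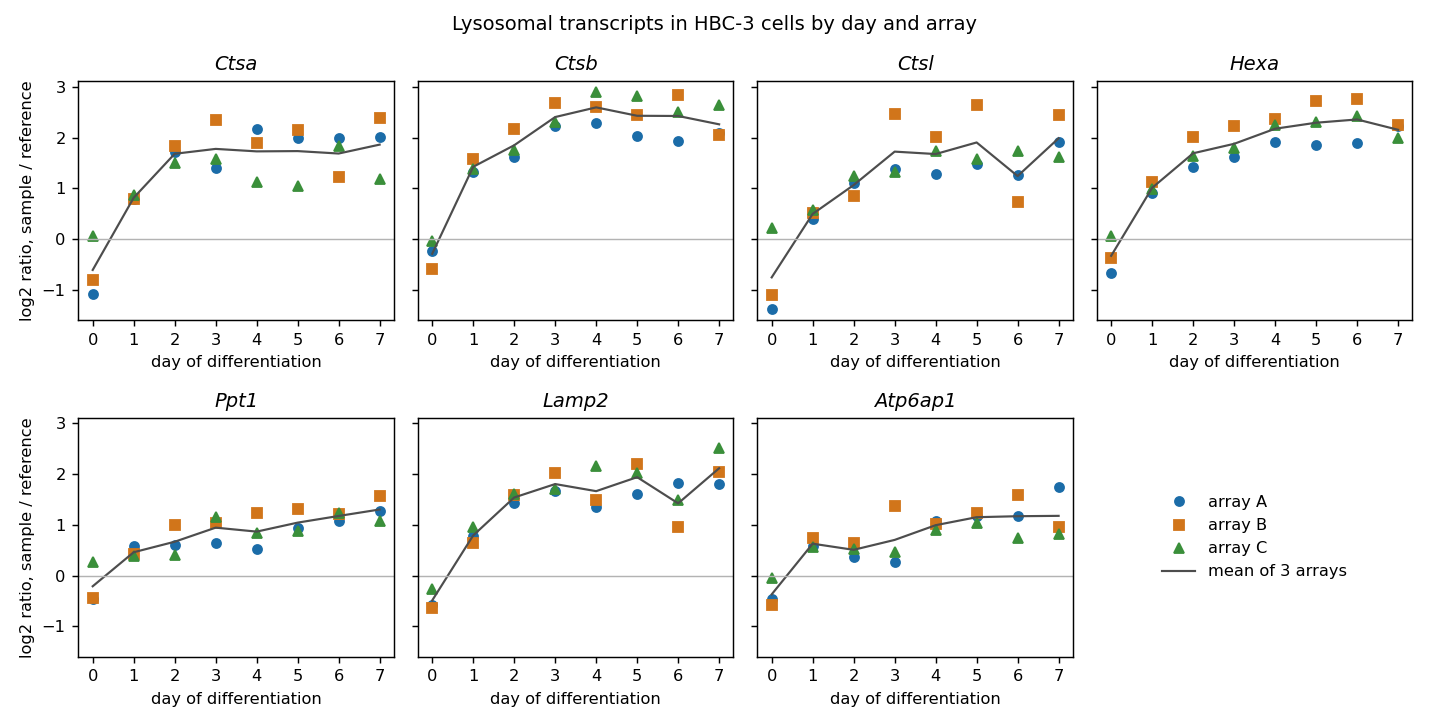
Centred log2 ratio of sample to reference (vertical axis) of 7 lysosomal genes against the day of differentiation (horizontal axis). Points are single arrays, 3 a day, and lines join the day means. Each gene's points of days 1 to 7 all lie above its 3 day 0 points; the Ctsl day 0 points spread from -1.38 to 0.22.

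The cysteine protease Ctsb was already high on the first day. Its centred log2 ratios were -0.24, -0.59 and -0.04 on day 0 (in the order A, B, C, as throughout) and 1.32, 1.57 and 1.38 on day 1. They rose further to 2.28, 2.60 and 2.90 on day 4, the highest day mean (2.59 ± 0.31, SD, n = 3), and stood at 2.10, 2.04 and 2.64 on day 7. Day 1 thus lay apart from both day 0 and day 2, while the days from day 2 on overlapped with their neighbours in the order of means. The change from day 0 was 1.71 (SE 0.27, limma adjusted p = 0.000612) at day 1 and 2.55 (SE 0.27, adjusted p = 3.23e-06) at day 7.

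Ctsl, its relative, spread most on day 0, at -1.38, -1.11 and 0.22, so that array C lay well above A and B. Its day 1 values were close together at 0.40, 0.52 and 0.57, followed by 1.10, 0.85 and 1.24 on day 2 and 1.38, 2.47 and 1.32 on day 3. The values of day 4 were 1.28, 2.00 and 1.74, those of day 5 were 1.49, 2.64 and 1.58, and those of day 6 were 1.26, 0.73 and 1.74. The B array was the highest on days 3, 4, 5 and 7 and the lowest on day 6. On day 7 the arrays read 1.90, 2.44 and 1.61, a change of 2.74 (SE 0.40, limma adjusted p = 7.53e-05). The day 1 change was 1.25 (SE 0.40, adjusted p = 0.0486). Its 2 features carry the same clone accession and are not independent readings; they differed by at most 0.35 on any array.

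Ctsa, the carboxypeptidase, showed the same split on day 0, at -1.09, -0.80 and 0.06. It read 0.78, 0.78 and 0.88 on day 1 and 1.72, 1.83 and 1.49 on day 2, and its day means then stayed between 1.68 and 1.86 up to day 7. Most of its rise was thus in place by day 2, after which neighbouring days could not be ordered beyond their spread. On day 7 it read 2.00, 2.39 and 1.18, and the C array was also the lowest of its day on days 4 and 5. The changes were 1.42 (SE 0.37, limma adjusted p = 0.0179) at day 1 and 2.47 (SE 0.37, adjusted p = 9.73e-05) at day 7.

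Hexa rose in steps that were small against its spread after day 2. The 3 arrays read -0.68, -0.38 and 0.06 on day 0, 0.91, 1.12 and 0.99 on day 1, and 1.41, 2.01 and 1.65 on day 2. Values were 1.61, 2.22 and 1.80 on day 3, 1.91, 2.36 and 2.25 on day 4, 1.86, 2.72 and 2.30 on day 5, and 1.89, 2.75 and 2.43 on day 6. Array B was the highest of its day from day 1 to day 7. On day 7 the values were 2.23, 2.24 and 1.99, a change of 2.48 from day 0 (SE 0.27, limma adjusted p = 3.66e-06), after 1.34 (SE 0.27, adjusted p = 0.00367) at day 1.

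Ppt1, the palmitoyl-protein thioesterase, did not pass the test on the first day. Its arrays read -0.45, -0.44 and 0.27 on day 0 and 0.58, 0.43 and 0.38 on day 1, so the groups were separated by a small gap. The day 1 change of 0.67 (SE 0.24) had a limma adjusted p of 0.0783, against the threshold of 0.05. From day 1 on its day ranges overlapped with their neighbours in order, and on day 7 it read 1.27, 1.56 and 1.08, a change of 1.51 (SE 0.24, adjusted p = 0.000165).

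Of the 2 membrane components, Lamp2 was low on all 3 day 0 arrays, at -0.57, -0.63 and -0.26. It read 0.78, 0.65 and 0.96 on day 1 and 1.42, 1.60 and 1.61 on day 2. Of days 2 to 7, day 6 had its lowest mean, at 1.82, 0.96 and 1.50. Its range overlapped that of day 2, the next in order. Arrays read 1.35, 1.49 and 2.16 on day 4, 1.60, 2.20 and 2.02 on day 5 and 1.80, 2.04 and 2.51 on day 7. The changes were 1.28 (SE 0.26, limma adjusted p = 0.00398) at day 1 and 2.60 (SE 0.26, adjusted p = 1.91e-06) at day 7. Atp6ap1 read -0.47, -0.58 and -0.05 on day 0 and 0.59, 0.74 and 0.57 on day 1. It stayed at that level, with 0.36, 0.64 and 0.53 on day 2 and 0.28, 1.37 and 0.47 on day 3, where B stood apart, and its day 2 mean was the lowest after day 0. The arrays of day 7 read 1.75, 0.96 and 0.83, a change of 1.55 (SE 0.28, adjusted p = 0.000480) after 1.00 (SE 0.28, adjusted p = 0.0249) at day 1.

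At day 1, 6 of the 7 transcripts rose, against 4.99% of all 10639 genes and features; the median change was 1.28 for the 7 and 0.03 for all. This count is sensitive to single arrays. It fell to 3 without day 0 array A or B or without day 1 array A, B or C, where 1.65% to 2.67% of all rose. It was 7 without day 0 C, against 6.96% of all. After inversion of all day 0 ratios, Ctsb alone passed the test (1.13, limma adjusted p = 0.0178), against 2.02% of all. Ctsl then changed direction to -0.26 (adjusted p = 0.797). With day 0 C alone inverted, all 7 passed, against 7.51% of all. Set directly against the reference channel, 5 passed, against 7.68% of all, with Ctsl at 0.50 (adjusted p = 0.261) no longer among the 5.

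From day 2 on, all 7 passed at each day. The share of all genes and features that rose was 9.05% at day 2, 12.2% at day 3, 11.3% at day 4, 11.7% at day 5, 12.2% at day 6 and 14.6% at day 7. The median change of the 7 was 2.02 at day 2, 2.29 at day 3, 2.34 at day 4, 2.43 at day 5, 2.00 at day 6 and 2.48 at day 7, while the median of all lay between -0.02 and 0.04. With the day 0 ratios inverted, the calls were 3, 5, 4, 4, 4 and 5 in the same order of days. The share of all that rose after inversion was 5%, 6.41%, 6.56%, 5.8%, 7.52% and 5.82%. At day 7 the 2 calls lost in this way were Ctsl (1.23, adjusted p = 0.0504) and Atp6ap1 (0.81, adjusted p = 0.0619). With those 4 late C arrays omitted, all 7 passed at each of these days, against 13.4% to 19.3% of all. Against the reference channel, Atp6ap1 missed the threshold at day 2 (0.51, adjusted p = 0.0608), and all 7 passed at day 7, against 17.7% of all. With only the days compared in the fit, Ppt1 missed it at day 4 (adjusted p = 0.0583). Across the whole course the 7 transcripts differed between days, as did 16.5% of all tested (limma F-test, largest adjusted p of the 7 0.00419). With the day 0 ratios inverted, 4 did, against 1091 of the 10639 tested.

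**Figure D2:**
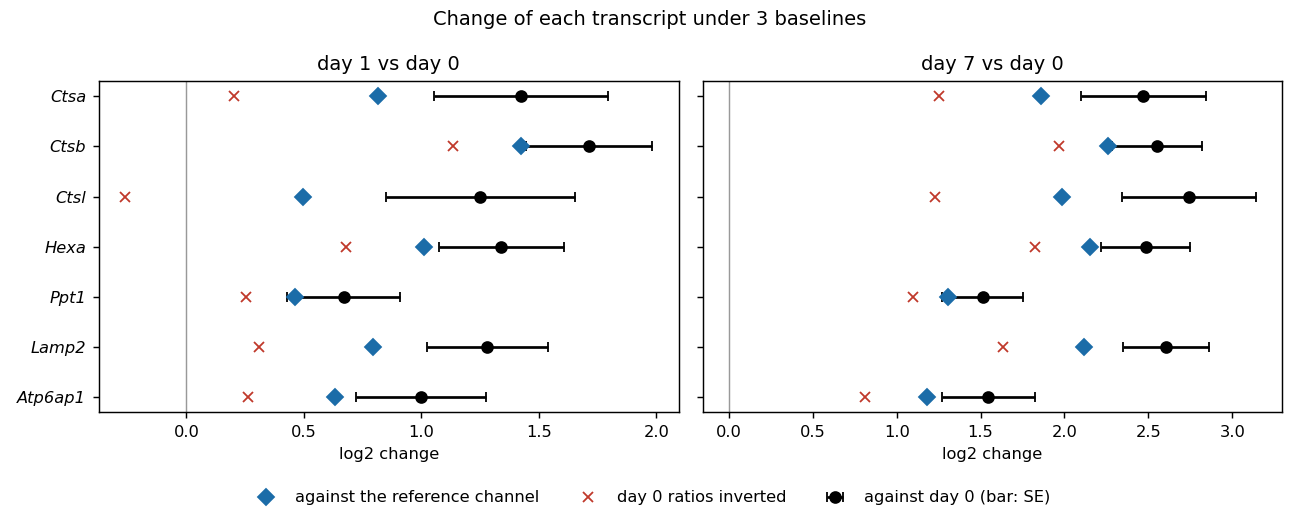
Log2 change of each gene (horizontal axis) at day 1 and day 7 against 3 baselines: the day 0 arrays (black circles, bars are standard errors from limma), the reference channel (blue diamonds) and the day 0 arrays with inverted ratios (red crosses). At day 7 all points lie above 0; at day 1 Ctsl falls to -0.26 when the day 0 ratios are inverted.

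Mean differences within the course do not use day 0, but the day 0 arrays enter the shared estimate of spread behind their p-values. All day 7 arrays lay above all day 1 arrays for each of the 7 genes, which held for 14.5% of all tested. By the limma test, 3 of the 7 were higher at day 7 than at day 1, against 1.54% of all: Lamp2 by 1.32 (SE 0.26, adjusted p = 0.00730), Hexa by 1.14 (SE 0.27, adjusted p = 0.0204) and Ctsl by 1.49 (SE 0.40, adjusted p = 0.0461). The other 4 had changes of 0.55 to 1.05 that did not pass. The count fell to 1 without day 1 array A, B or C or day 7 array A, where 0.498% to 0.949% of all were higher. It fell to 0 without day 7 array C, against 0.545% of all. It was also 0 after the arrays had been scaled to a common spread, against 1.75% of all. Lamp2 then read 0.67 (adjusted p = 0.143), Hexa 0.46 (adjusted p = 0.410) and Ctsl 1.03 (adjusted p = 0.260). With only days 1 and 7 in the fit, none of the 7 passed, against 0.479% of all (limma adjusted p = 0.0636 for Lamp2, 0.0585 for Hexa and 0.0534 for Ctsl).

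Between days 5 to 7 and days 1 to 3, 3 genes passed: Hexa rose by 0.74 (SE 0.15, limma adjusted p = 0.00776), Atp6ap1 by 0.55 (SE 0.16, adjusted p = 0.0411) and Ppt1 by 0.48 (SE 0.14, adjusted p = 0.0397). These 3 of 7 compare with 3.51% of all, and the median change was 0.48 for the 7 and -0.02 for all. The fit treats the arrays as independent. Yet deviations from the day mean correlated between arrays of the same letter, at 0.194 to 0.441 within days 1 to 3. Within days 4 to 7 they did so at 0.142 to 0.912. The SE and p-values of this comparison may therefore be too small. The remaining genes had changes of 0.34 for Ctsa, 0.45 for Lamp2, 0.48 for Ctsb and 0.62 for Ctsl. The Ppt1 call ended with the median over features (0.33, adjusted p = 0.148) and with features present on at least 22 arrays (0.33, adjusted p = 0.166); its feature 5268 was missing on all but 2 late arrays. The Atp6ap1 call ended with only the days compared in the fit (adjusted p = 0.0576). For each of the 7, the lowest late array lay below the highest early one. Only 1 call was left without day 1 A, B or C, day 2 A or C, day 3 A or C, day 5 B or C, or day 7 A. In these fits 1.88% to 3.64% of all rose. After scaling to a common spread none of the 7 passed, against 3.2% of all. Hexa then read 0.12, and Ctsb (-0.24), Ctsa (-0.10) and Lamp2 (-0.05) turned below 0.

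Features of the same gene did not always read alike. Of the 4 Ctsb features, number 18736 was low on day 0 A and B (-1.08 and -1.04), whereas number 21053 read 0.01 and -0.14 there. On the C arrays of days 4 to 7, the mean difference from A of the same day was 1.39 for feature 654 (over 3 days), 1.38 for 674 and 0.64 for 21053, but -0.93 for 18736. Feature 18736 had no value on the B arrays of days 4 to 7, so the Ctsb mean rests on different features on different arrays. Tested singly, the changes at day 7 were 2.09 for feature 674 (limma adjusted p = 0.00412), 2.83 for 18736 (adjusted p = 0.000177) and 1.73 for 21053 (adjusted p = 0.000446); feature 654 had too few values on day 0. At day 1, feature 674 did not pass (1.39, adjusted p = 0.105). All Ctsb features that could be tested therefore rose by day 7, but not by the same amount.

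Ppt1 feature 5268 had values on 14 arrays and stayed between -0.45 and 0.66, while features 16765 and 20756 rose by 1.66 (limma adjusted p = 0.000159) and 1.93 (adjusted p = 0.000106) at day 7. These 2 also passed at day 1 (0.88 and 0.97, adjusted p = 0.0377 and 0.0379), where the gene's mean over features did not. The smaller change given for Ppt1 thus includes a feature that showed little movement. Lamp2 features agreed in direction and differed on day 0: number 10253 read -1.04, -1.01 and 0.02, and number 4921 read -0.10, -0.25 and -0.54. Their day 7 changes were 2.83 (adjusted p = 7.74e-06) and 2.38 (adjusted p = 6.46e-05). With features restricted to those present on at least 22 arrays, Ctsb changed by 1.28 at day 1 and 1.97 at day 7.

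**Figure D3:**
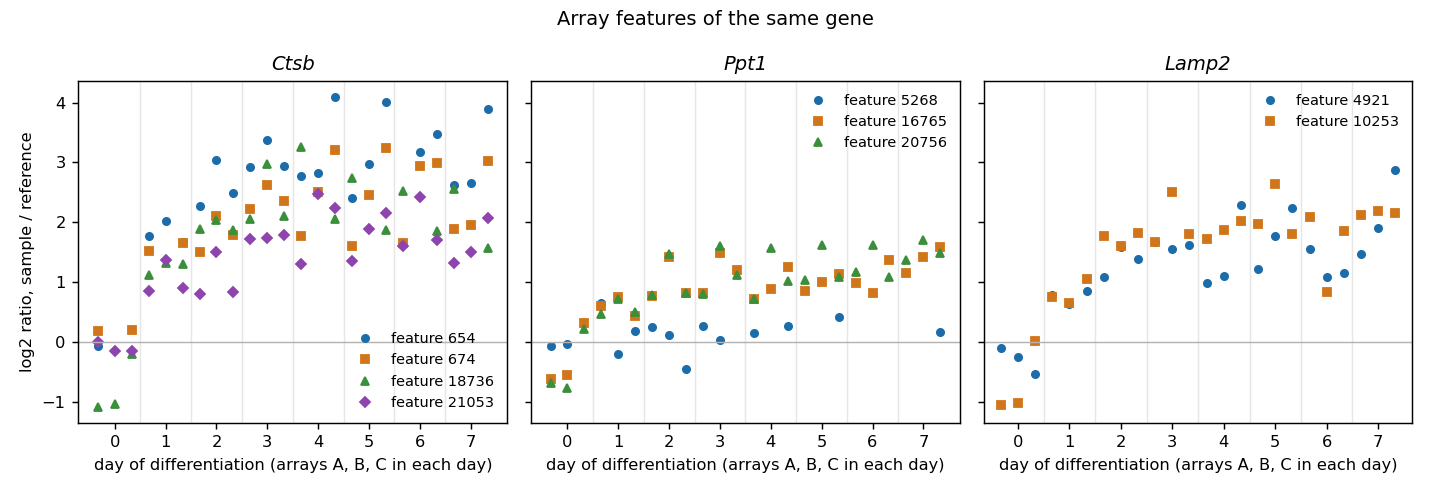
Centred log2 ratio (vertical axis) of each array feature of Ctsb, Ppt1 and Lamp2, by day with arrays A, B and C placed left to right within each day. Colours and marker shapes stand for features; gaps are arrays with no value. Ppt1 feature 5268 stays between -0.45 and 0.66, and the Ctsb features separate on the C arrays of days 4 to 7.

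Over the 24 arrays the 7 transcripts varied together, a description that includes the step from day 0 to later days. Ctsb and Hexa were the closest pair (Pearson r = 0.954 over 24 arrays, 0.850 over the 21 arrays of days 1 to 7). Ctsl was closest to Lamp2 (0.904 over 24 arrays, 0.779 over 21). Some pairs were loose once day 0 was set aside, the lowest being 0.206 for Lamp2 and Atp6ap1 and 0.221 for Ctsa and Ctsb. Over the same 21 arrays, Ppt1 and Hexa correlated at 0.786, Ctsa and Ctsl at 0.702, and Atp6ap1 and Hexa at 0.644. The letters differed between genes too. In the C arrays of days 4 to 7, the mean difference of C from A and B of the same day was -0.68 for Ctsa, against 0.43 for Ctsb and 0.39 for Lamp2. Of 4075 other genes with a value on all arrays, the 6 that ran most like the mean of the 7 were Itm2b (r = 0.962), P2rx4 (0.957), Cmtm3 (0.957), Tpp1 (0.955), Clu (0.953) and Ctdsp2 (0.951). P2rx4 encodes an ATP-gated channel found on lysosomes, Tpp1 a lysosomal peptidase and Clu the secreted chaperone clusterin. Over days 1 to 7 alone these values were 0.783 to 0.859; all points share the reference RNA and their array.

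Beyond the 7, 78 other genes from lists of lysosomal proteases, glycosidases, lipid-degrading and related enzymes, membrane proteins, vacuolar ATPase subunits, sorting factors and regulators could be tested. At day 7, 35 of these 78 rose and none fell, against the 14.6% of all genes and features; their median change was 0.82. At day 1, 13 rose and none fell, against 4.99% of all, with a median of 0.40. Between days 5 to 7 and days 1 to 3, 8 rose and none fell, against 3.51% of all, with a median of 0.16. Of all 10639 tested, 2940 passed in either direction at day 7, 1552 of them higher. The same numbers were 1161 and 531 at day 1, and 823 and 373 for days 5 to 7 against days 1 to 3. With the day 0 ratios inverted, 25 rose at day 7, against 5.82% of all, and 1 at day 1, against 2.02% of all. The day 1 count was 4 without day 0 A or B, 6 without day 1 A or C and 7 without day 1 B. In these fits 1.65% to 2.67% of all rose. The count was 25 with the 4 late C arrays omitted, against 10.6% of all, and this omission alters only the estimate of spread there.

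The counts in each list are to be read against the 14.6% of all that rose at day 7 and the 4.99% at day 1. Among other lysosomal proteases, 6 of 8 rose at day 7 (median change 1.64) and 4 at day 1. They included Dpp7 (2.36, SE 0.25), a dipeptidyl peptidase, Tpp1 (2.15, SE 0.24), Scpep1 (2.01, SE 0.27), a serine carboxypeptidase like Ctsa, and the aspartic protease Ctsd (1.83, SE 0.48). Of the glycosidases, sulfatases and their cofactors, 7 of 12 rose at day 7 (median 1.05) and 3 at day 1. Manba, the beta-mannosidase, rose by 2.73 (SE 0.44), Psap, the precursor of saposins, by 1.98 (SE 0.57), Arsa, arylsulfatase A, by 1.69 (SE 0.25), and Sumf1, which activates sulfatases, by 1.23 (SE 0.24). In the lipid-degrading and related group, 4 of 6 rose at day 7 (median 1.31) and 1 at day 1. These 4 were acid ceramidase Asah1 (2.24, SE 0.46), Pld3 (1.84, SE 0.37), the cholesterol carrier Npc2 (1.51, SE 0.51) and acid sphingomyelinase Smpd1 (1.12, SE 0.23). Limma adjusted p-values of the genes named here were at most 0.0337. With the day 0 ratios inverted, Asah1, Pld3 and Npc2 no longer passed (1.24, 0.75 and 0.67). Psap lost its call without day 0 B (adjusted p = 0.0529) or day 7 A (adjusted p = 0.0661), and Npc2 without day 0 A or B or day 7 A or B (adjusted p = 0.0882 to 0.149) or with only the days compared in the fit (adjusted p = 0.0726).

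Of 18 other lysosomal membrane proteins, 6 rose at day 7 (median 0.62) and 4 at day 1, led by Laptm4b (2.44, SE 0.30), Glmp (2.32, SE 0.34), the sialomucin Cd164 (1.97, SE 0.32) and Ostm1 (1.74, SE 0.37). Lamp1, the close relative of Lamp2, read 0.08 (SE 0.24, limma adjusted p = 0.827) and changed to -0.12 with the day 0 ratios inverted, to -0.11 with day 0 C alone inverted and to -0.02 against the reference channel. Its arrays read -0.34 to 0.32 on day 0 and -0.33 to 0.38 on day 7, so the groups overlapped. Whether Lamp1 and Lamp2 differed from each other was not tested. Of 11 other vacuolar ATPase genes, 4 rose at day 7 (median 0.88) and 1 at day 1, a share near that of all features on that day. The second accessory subunit, Atp6ap2, rose by 2.68 (SE 0.35), the membrane sector subunit Atp6v0d1 by 1.50 (SE 0.26), and the cytosolic sector subunits Atp6v1d and Atp6v1g1 by 1.45 (SE 0.44) and 1.09 (SE 0.26). The adjusted p-values of the genes named as rising here were at most 0.0182. Cd164, Atp6v1d and Atp6v1g1 lost their calls with the day 0 ratios inverted (0.45, 0.39 and 0.40), and Atp6v1d also did without day 0 A or B or day 7 C (adjusted p = 0.0748 to 0.111). With only the days compared in the fit, Atp6v1d and Atp6v1g1 missed the threshold (adjusted p = 0.0525 and 0.0689).

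Sorting factors showed the lowest median of the 7 lists at day 7 (0.48), with 4 of 16 higher there and none at day 1. These were the retromer subunit Vps26a (1.39, SE 0.21), the sorting receptor Sort1 (1.21, SE 0.38), the adaptor Gga2 (1.14, SE 0.26) and Nagpa (0.82, SE 0.23), the enzyme that uncovers the mannose 6-phosphate tag. M6pr, the cation-dependent mannose 6-phosphate receptor, read 0.42 (SE 0.42, limma adjusted p = 0.480). Of 7 regulators, 4 rose at day 7 (median 1.25) and none at day 1: Flcn (2.16, SE 0.36) and Fnip1 (1.96, SE 0.33), which form the folliculin complex, Rragc (1.43, SE 0.29), a Rag GTPase, and Lamtor3 (1.25, SE 0.31), a Ragulator subunit. Tfe3, a TFEB relative, read -0.06 (SE 0.25, adjusted p = 0.884), and its sign depended on the baseline, with 0.16 when the day 0 ratios were inverted, 0.10 when day 0 C alone was inverted and 0.05 against the reference channel. Adjusted p-values of the 8 that rose were at most 0.0246. Tfeb had values on 18 arrays and was not tested; Mitf, Mcoln1 and Igf2r were not analysed here. Sort1, Fnip1 and Lamtor3 lost their calls with the day 0 ratios inverted (0.85, 0.79 and 0.22), and Nagpa did after scaling (0.49). Single arrays also ended calls: Sort1 without day 0 A or B or day 7 C (adjusted p = 0.103 to 0.146), and Nagpa without day 0 A (adjusted p = 0.0553) or day 7 C (adjusted p = 0.0869). Both also missed it with the 4 late C arrays omitted (0.81 and 0.74), and with only the days compared in the fit Sort1, Nagpa and Lamtor3 did (adjusted p = 0.0865, 0.0965 and 0.0518). No cytosolic cathepsin inhibitor could be tested.

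**Figure D4:**
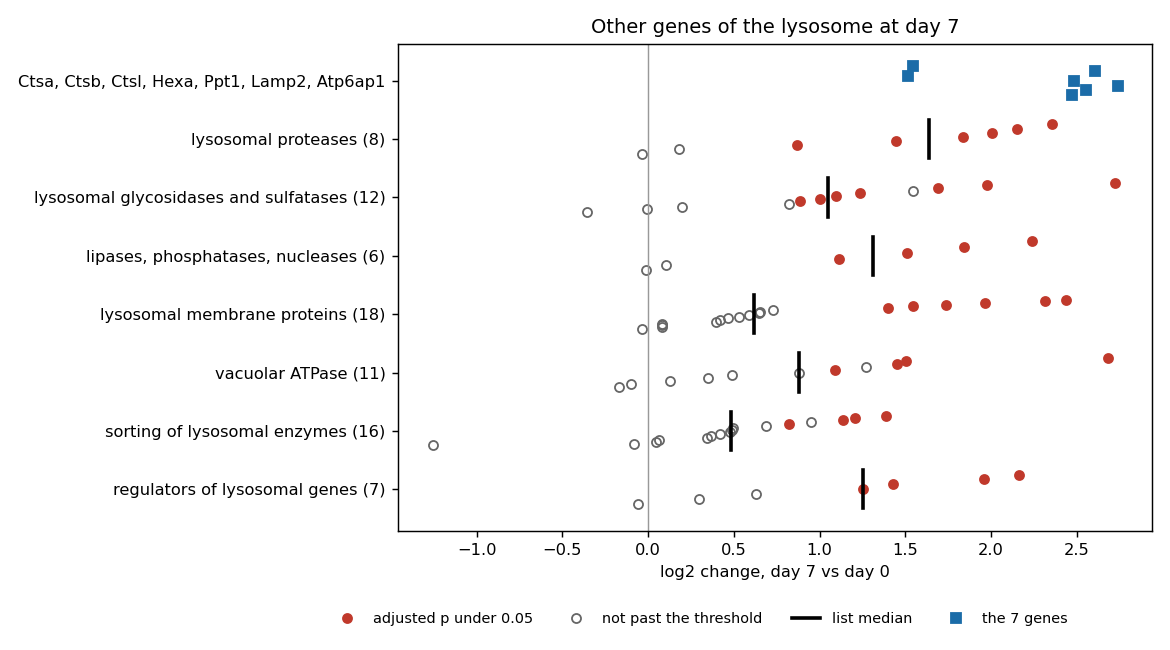
Log2 change at day 7 against day 0 (horizontal axis) of the 7 genes (blue squares) and of 78 other lysosomal genes by list, with the number tested in brackets. Filled red circles had a limma adjusted p under 0.05, open circles did not, and black bars are list medians, which run from 0.48 for sorting factors to 1.64 for proteases.

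Markers of other cells were read beside these results. Of 12 fibroblast markers tested (of 19 listed), 3 rose at day 1 (median change 0.87) and 3 at day 7 (median 0.71). Of all tested, 4.99% and 14.6% rose on these days. From days 1 to 3 to days 5 to 7, 3 of the 12 fell and 1 rose (median -0.45). In that comparison 823 of all 10639 passed in either direction, 373 of them higher. The median of the 12 markers on day 0 A, B and C was -0.68, -0.55 and 0.15, close to the -0.57, -0.59 and 0.06 of the 7 lysosomal genes. On day 7 the marker medians were 0.49, 0.04 and -0.02, and those of the 7 were 1.90, 2.04 and 1.61. The markers that rose were Col5a1 (1.43), Col6a1 (1.81) and Pdgfrb (2.29) at day 1, and Dcn (6.06, limma adjusted p = 6.51e-06), Pdgfrb (1.82) and Prrx1 (0.95) at day 7. From days 1 to 3 to days 5 to 7, Dcn rose by 1.91, and Col5a1 (-0.85), Col6a2 (-0.96) and Col5a2 (adjusted p = 0.0131) fell. Of 4 macrophage and blood markers tested (of 19), Tyrobp rose at day 7 (2.29, limma adjusted p = 0.00757), Hba-a1 rose at day 1 (1.33, adjusted p = 0.0189) and read -0.01 at day 7, and Lyz2 read 0.44 and C1qb -0.17 at day 7 without passing. The median of these 4 markers on each array was -0.13 to 0.09 on day 0 and 0.04 to 0.61 on day 7. Of 3 bile duct markers tested (of 16), Itga6 rose at day 1 (0.86, adjusted p = 0.0176) and Anxa4 at day 7 (1.27, adjusted p = 0.000358). Itga6 read -0.31 at day 7, and Bicc1 passed at neither day (1.45 and 1.47). From days 1 to 3 to days 5 to 7, Itga6 fell (-0.84, limma adjusted p = 0.00144) and Anxa4 rose (0.55, adjusted p = 0.0202). The median of these 3 markers was -0.41 to -0.17 on the C arrays of days 4 to 7 and 1.00 to 1.68 on A and B. The endothelial marker Cdh5 changed by 0.08 at day 1 and 0.12 at day 7 without passing. Its arrays were split on day 7, at -0.47, -0.39 and 0.81, so this mean change does not describe each array. Array C was also its highest on days 4 and 5 (0.66 and 1.02), but not on day 6. The part of such cells in the lysosomal changes was not tested. Of 28 hepatocyte and hepatoblast markers, 4 could be tested. By day 7 Afp (1.93, limma adjusted p = 0.0427), Igf2 (1.80, adjusted p = 0.0281) and H19 (3.34, adjusted p = 0.00634) rose while Apob read -0.38. The arrays were not alike: the median of these 4 markers was 0.71, 2.65 and 0.93 on day 7 and 0.63, 2.45 and -0.35 on day 6. The marker calls were not checked with the day 0 ratios inverted or with arrays omitted. A ratio gives no level, so the presence of a marker could not be checked.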

How the data were processed

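Amplified RNA was labelled with random primers, the reference with Cy3 and the samples with Cy5, per the labels' protocols. The deposited values were taken as log2 ratios; log base, numerator, background correction, normalization and the filter behind empty cells were not stated in any label or file header used. Of 24157 features, 13319 had 1 gene symbol in the platform annotation and 589 had several; 13290 symbols were updated through Entrez identifiers (GRCm38.p6 table). Each array was centred on its median, features of a gene were averaged, and genes or unnamed features with values on at least 2 of 3 arrays of every day were kept (10639). Day means were fitted to all 24 arrays with limma 3.58.1 in R 4.3.3, with Benjamini-Hochberg adjustment over all 10639 and a threshold of 0.05. The fit was tested on simulated data. The genes and lists were chosen with earlier results of these data known, by a written rule: all 7 genes in every comparison, up to 4 per list with the largest change among those past the threshold at day 7, a few further lysosomal genes where tested, and the 6 most alike in pattern. Alternatives covered the day 0 sign, reference channel, centring, scaling, filters, features, replicate letter, array weights and omitted arrays. Protein sequences were not used here. Figures were drawn with matplotlib 3.10.9.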

Additional observations from a re-analysis of the deposited data

Results flagged for a closer look

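The change from day 0 differed between days for 3 of the 7 genes by a direct test of day 7 against day 1 in the same limma fit. Ctsl was higher at day 7 by 1.49, Hexa by 1.14 and Lamp2 by 1.32, while 1.54% of all tested were higher. All 3 day 7 arrays lay above all day 1 arrays for each of the 7 genes, passing or not, and for 14.5% of all tested. Ctsl, Hexa and Lamp2 did not pass after scaling of the arrays to a common spread, or with only the days compared in the fit. Groups of 3 arrays are too small for a test of single outlying arrays.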

How the results depend on the processing

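At day 7 against day 0, each of the 7 genes kept its direction under all alternatives run. After inversion of all day 0 ratios, 1 of the 7 passed at day 1, 3 at day 2, 4 at each of days 4, 5 and 6 and 4 over the whole course, 1 of the 78 other lysosomal genes rose at day 1, and Ctsl reversed to -0.26 at day 1. With arrays scaled to a common spread, 0 of the 7 passed for day 7 against day 1, against 1.75% of all, and Ctsb reversed there (-0.048). None passed for days 5 to 7 against days 1 to 3, where Ctsa (-0.10), Ctsb (-0.24) and Lamp2 (-0.055) reversed. Of the 78, 31 rose at day 1, against 15.9% of all, and 3 in the late days, against 3.2% of all. Fitting only the days compared gave 0 of the 7 at day 7 against day 1, while 0.479% of all rose. It gave 29 of the 78 at day 1, against 12.3% of all. The reference channel gave 21 of the 78 at day 1, against 7.68% of all. Leaving out the C arrays of days 4 to 7 gave 25 there, against 10.6% of all. Array weights gave 7 of the 7 in both comparisons within the course, and 48 of the 78 at day 1 and 18 in the late days, while the share of all features that rose was 4.27% for day 7 against day 1, 31.2% at day 1 and 5.84% in the late days. The cause of these shifts was not tested.

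The replicate block (letter A, B or C) gave 5 of the 7 for both comparisons within the course, 21 of the 78 at day 1 and 15 in the late days. Over all features the block raised the share that was higher to 2.99% for day 7 against day 1, 6.22% in the late days and 7.15% at day 1. Same-letter deviations correlated at 0.194 to 0.441 within days 1 to 3 and 0.142 to 0.912 within days 4 to 7, but at -0.544 to 0.460 between day 0 and later days and -0.30 to 0.29 between days 1 to 3 and days 4 to 7, so the letters were not taken as pairs across the days compared; 19 of 24 arrays correlated best with their own letter on average, a hint from the data and not the design. Leaving out each array in turn gave 3 to 7 of the 7 at day 1, against 1.65% to 6.96% of all. It gave 5 to 7 at day 2, against 4.64% to 10.6%, and 6 to 7 at day 3, against 6.47% to 13.1%. All 7 passed at each of days 4 to 7, against 6.4% to 14.8%, and over the course, against 757 to 2124 of the 10639. At day 7 against day 1 the omissions gave 0 to 2, against 0.498% to 1.58%. In the late days they gave 1 to 4, against 1.88% to 4.57%. For the 78 they gave 4 to 18 at day 1, 27 to 35 at day 7 and 7 to 10 in the late days. At day 7 alone, 8.7% to 14.8% of all rose. Under omission of an array, single-gene results of the 7 stayed on the same side of the threshold in 394 cases. These include results that passed neither with nor without the array. A call was lost in 62 cases and gained in 6, and the direction reversed in 0. Requiring features on at least 22 arrays was chosen after seeing the data and ended the Ctsl call at day 1 (adjusted p = 0.0515). Spot intensities were not analysed here, so signal over background and its limits are not known, and 3 arrays a day bound the precision.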
